A study of Mus musculus with 2 samples.

Results

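The genes described here encode the isoforms of 3 glycolytic enzymes in mouse heart, phosphofructokinase (Pfkm, Pfkl and Pfkp), phosphoglycerate mutase (Pgam2 and Pgam1) and enolase (Eno3 and Eno1), together with the bifunctional enzymes that regulate phosphofructokinase (Pfkfb1, Pfkfb2 and Pfkfb3). They were chosen by gene symbol, and all 10 of them were found among the 22882 symbols measured. RNA was taken from the hearts of 23 day old mice of the C57BL6/J background, of mixed sex, and pooled over 5 mice of each genotype. The control pool came from Med1fl/fl mice, in which exons of Med1, a subunit of the Mediator complex, are flanked by loxP sites. The other pool came from csMed1-/- mice, which carry the same floxed allele and a Cre transgene under the α-myosin heavy chain promoter, so that Med1 is deleted in cardiomyocytes while the other cells of the heart keep it. One poly(A) library was sequenced from each pool, so there are no replicates, and every difference below is a description of 1 library against 1 library with no test.

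Phosphofructokinase adds the second phosphate to the sugar and is the main control point of glycolysis. Phosphoglycerate mutase and enolase act in the lower part of the pathway, after the sugar has been split. Each of the 3 enzymes has a muscle isoform (Pfkm, Pgam2 and Eno3), which is typical of adult striated muscle, and more widely expressed isoforms (Pfkl and Pfkp, Pgam1, Eno1). Developing muscle is known to go over from Eno1 to Eno3 and from Pgam1 to Pgam2, and inherited loss of any of the 3 muscle isoforms causes a muscle disease. The Pfkfb enzymes make and break down the fructose bisphosphate that activates phosphofructokinase.

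All 3 muscle isoforms were lower and all 4 non-muscle isoforms were higher in the csMed1-/- library than in the control library. The shift was greatest for phosphofructokinase, where Pfkm went from 85.9% to 39.5% of the summed isoform FPKM. FPKM counts the fragments of a transcript relative to its length and to all mapped fragments of the library, so levels of different genes can be set side by side. Past 2-fold, 3 of the 10 genes were lower (Pfkfb1, Pfkm and Eno3) and 2 were higher (Pfkp and Eno1). The study used this fold threshold together with a cutoff on the false discovery rate, which was not applied here. Among the 10489 genes detected in each library and reaching 1 FPKM in at least one of them, 18.0% were lower and 13.6% were higher by more than 2-fold, 31.5% in all, so these 5 genes stand among many. The median log2 ratio was 0.10 over the 10 genes and -0.07 over all genes kept, of which 5579 were lower and 4910 higher by any amount. All 10 genes passed the filter on low values, Pfkfb1 only through control, since it had 2.05 FPKM there and 0.25 FPKM in csMed1-/- heart.

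**Figure D1:**
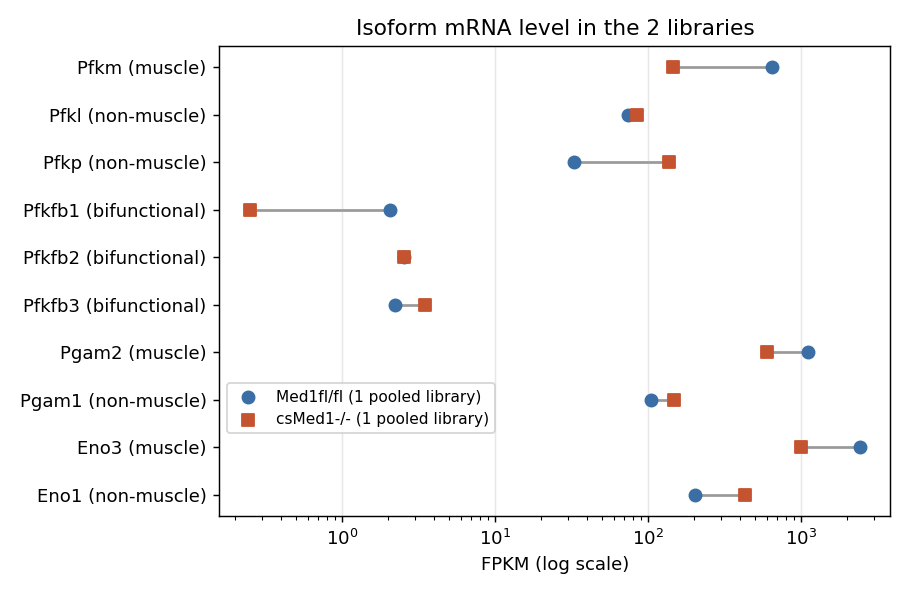
Level of each of the 10 mRNAs in FPKM on a log axis, with a circle for the Med1fl/fl library and a square for the csMed1-/- library, joined by a line. Pfkm, Pgam2, Eno3 and Pfkfb1 lie to the left of control in csMed1-/- heart, and Pfkp, Eno1, Pgam1, Pfkl and Pfkfb3 to the right, while the 2 symbols of Pfkfb2 coincide.

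Med1 itself, the check of the labels, had 3.38 FPKM in Med1fl/fl and 0.412 FPKM in csMed1-/- heart (ratio 0.122). Read totals are not in the files used here, so the depth behind each value is unknown. Low values move in steps of single reads, and the size of those steps puts the depth of csMed1-/- at 1.39 times that of Med1fl/fl, if values were scaled to mapped fragments alone. An FPKM of 0 was listed for the abundant cardiac actin gene Actc1 in control and 9189 FPKM in csMed1-/- heart, so a listed 0 cannot be read as absence. None of the 10 genes had a summed value of 0.

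Pfkm (chromosome 15, 98092589 to 98132451, plus strand) encodes the muscle subunit of phosphofructokinase. Its mRNA had 646 FPKM in Med1fl/fl and 145 FPKM in csMed1-/- heart, which is 4.46-fold lower (log2 ratio -2.16). Only 4.29% of the genes kept had a lower log2 ratio. By abundance Pfkm went from rank 220 to rank 767 among all symbols. Pfkp (chromosome 13, 6579768 to 6648777, minus strand), the platelet type subunit, moved the other way by nearly the same factor. It had 32.9 FPKM in Med1fl/fl and 138 FPKM in csMed1-/- heart, which is 4.19-fold higher (log2 ratio 2.07), and 4.06% of genes had a higher log2 ratio. Pfkl (chromosome 10, 77986947 to 78010083, minus strand), the liver type subunit, differed little, with 73.4 FPKM in Med1fl/fl and 84.1 FPKM in csMed1-/- heart (ratio 1.15).

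The phosphofructokinase mRNA pool was therefore both smaller and of another makeup in the csMed1-/- library. The summed level of the 3 subunit mRNAs was 752 FPKM in Med1fl/fl and 367 FPKM in csMed1-/- heart (ratio 0.488). In control, Pfkm made up 85.9% of it, Pfkl 9.76% and Pfkp 4.37%. In csMed1-/- heart the shares were 39.5% for Pfkm, 37.6% for Pfkp and 22.9% for Pfkl, so that Pfkm and Pfkp were close to equal. Pfkm outnumbered Pfkp 19.6 to 1 in control and 1.05 to 1 in csMed1-/- heart. Pfkl was above Pfkp in control, whereas Pfkp was above Pfkl in csMed1-/- heart, at Pfkp to Pfkl ratios of 0.448 and 1.64. The 116 FPKM by which Pfkl and Pfkp together were higher equalled 23.1% of the 501 FPKM by which Pfkm was lower.

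Enolase showed the same pattern at a higher level of expression. Eno3 (chromosome 11, 70657202 to 70662513, plus strand), which encodes the muscle enolase, was the most abundant of the 10 mRNAs in both libraries. It had 2421 FPKM in control, rank 46 of all symbols, and 994 FPKM in csMed1-/- heart, rank 135, which is 2.43-fold lower (log2 ratio -1.28). Eno1 (chromosome 4, 150236721 to 150248879, plus strand), the widely expressed enolase, had 204 FPKM in Med1fl/fl and 430 FPKM in csMed1-/- heart, which is 2.11-fold higher (log2 ratio 1.08) and just past 2-fold. The summed enolase level was 2624 FPKM in Med1fl/fl and 1424 FPKM in csMed1-/- heart (ratio 0.543). Eno3 still made up most of it, at 92.2% in control and 69.8% in csMed1-/- heart.

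Phosphoglycerate mutase had the same directions with smaller differences, neither of them past 2-fold. Pgam2 (chromosome 11, 5801640 to 5803733, minus strand), the muscle isoform, had 1107 FPKM in Med1fl/fl and 601 FPKM in csMed1-/- heart (ratio 0.543, log2 ratio -0.88). Pgam1 (chromosome 19, 41911923 to 41918660, plus strand), the widely expressed isoform, had 105 FPKM in Med1fl/fl and 147 FPKM in csMed1-/- heart (ratio 1.40, log2 ratio 0.49). The summed level went from 1211 FPKM to 748 FPKM (ratio 0.617), and the Pgam2 share from 91.4% to 80.4%.

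**Figure D2:**
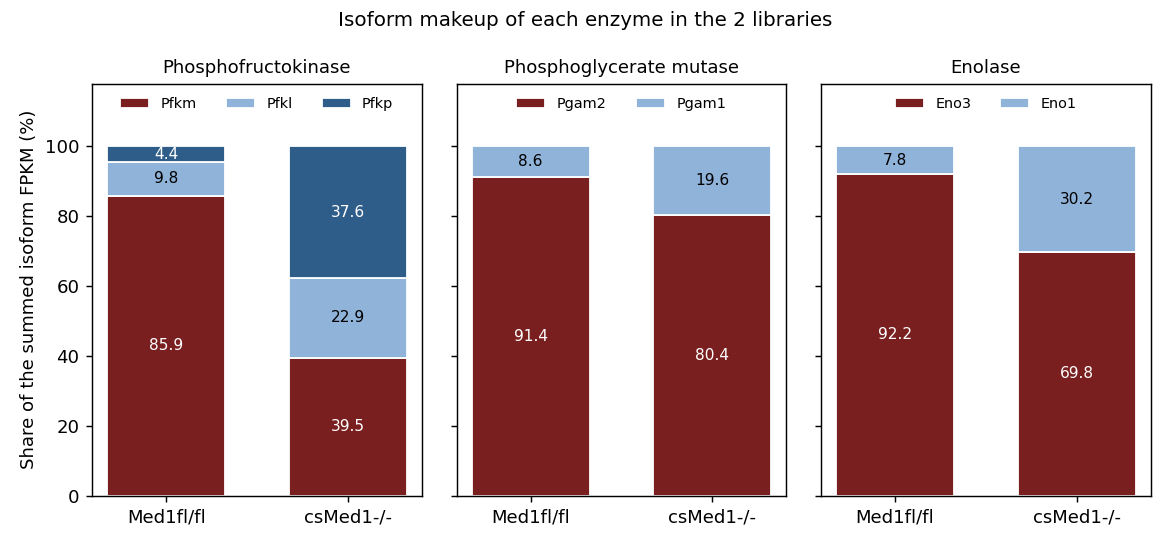
Share of each isoform, in percent of the summed FPKM of its enzyme, in the Med1fl/fl library (left bar) and the csMed1-/- library (right bar), for phosphofructokinase, phosphoglycerate mutase and enolase. The muscle isoform, drawn in dark red at the bottom, held 85.9%, 91.4% and 92.2% in control and 39.5%, 80.4% and 69.8% in csMed1-/- heart.

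The contrast between muscle and non-muscle isoforms of an enzyme compares genes within a library, so it does not depend on how the 2 libraries were scaled. The ratio of Pfkm to the sum of Pfkl and Pfkp was 6.08 in control and 0.653 in csMed1-/- heart, 9.30-fold lower. The ratio of Eno3 to Eno1 was 11.9 in control and 2.31 in csMed1-/- heart, 5.13-fold lower. The ratio of Pgam2 to Pgam1 was 10.6 in control and 4.10 in csMed1-/- heart, 2.58-fold lower. As differences of log2 ratios, muscle minus non-muscle, these are -3.22, -2.36 and -1.37. In each enzyme the muscle isoform differed by more FPKM than the non-muscle isoforms did, and the non-muscle difference came to 15.8% of the muscle difference in enolase and 8.33% in phosphoglycerate mutase. The 3 muscle isoforms held 90.8% of the summed FPKM of the 10 genes in control and 68.4% in csMed1-/- heart.

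**Figure D3:**
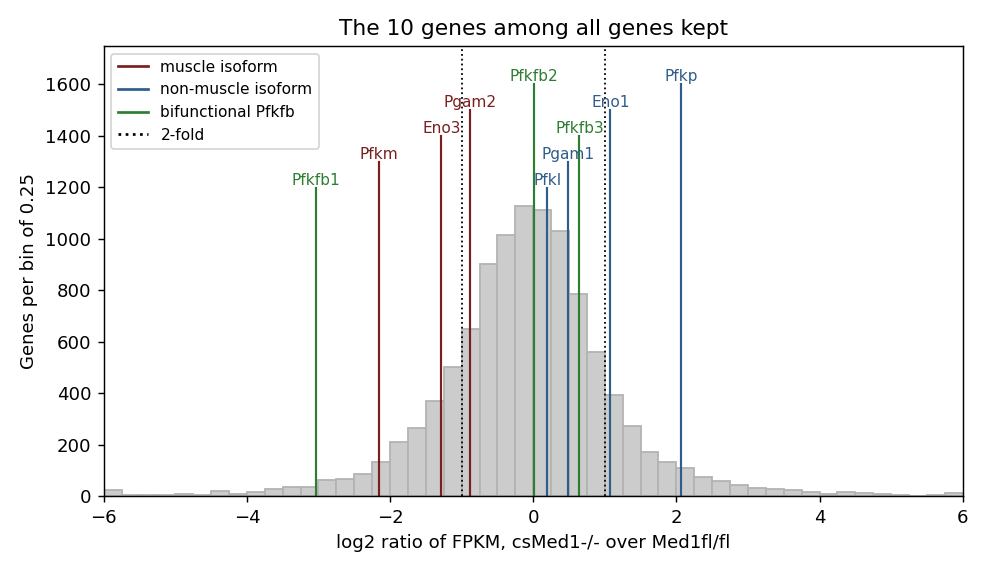
Histogram of the log2 ratio of FPKM, csMed1-/- over Med1fl/fl, of the 10489 genes kept, in bins of 0.25, with a line at the ratio of each of the 10 genes and dotted lines at 2-fold. The muscle isoforms (dark red) lie between -2.16 and -0.88 and the non-muscle isoforms (blue) between 0.20 and 2.07, while the bifunctional enzymes (green) are spread from -3.03 to 0.65.

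The bifunctional enzymes were expressed at a far lower level, between 0.25 and 3.49 FPKM, and did not share a direction. Pfkfb1 (chromosome X, 150588229 to 150643878, plus strand), known from liver and muscle, had 2.05 FPKM in Med1fl/fl and 0.25 FPKM in csMed1-/- heart, which is 8.19-fold lower (log2 ratio -3.03). Only 1.81% of the genes kept had a lower log2 ratio, but at such levels a ratio rests on few reads. Adding 1 FPKM to both values brought the log2 ratio to -1.29. Pfkfb3 (chromosome 2, 11471433 to 11554077, minus strand), the inducible and widely expressed form, had 2.23 FPKM in Med1fl/fl and 3.49 FPKM in csMed1-/- heart (ratio 1.56), within 2-fold.

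Pfkfb2 (chromosome 1, 130689182 to 130729253, minus strand), the form known from heart, stood on 3 rows that went different ways. The first row had 0.117 FPKM in Med1fl/fl and 0.495 FPKM in csMed1-/- heart. The second row was listed at 0 in control and had 1.18 FPKM in csMed1-/- heart. The third row had 2.41 FPKM in Med1fl/fl and 0.879 FPKM in csMed1-/- heart (ratio 0.364). Summed, they gave 2.53 FPKM and 2.55 FPKM (ratio 1.01), whereas the highest row alone gave a log2 ratio of -1.46, which is past 2-fold lower. Which transcript each row stands for is not stated, so no direction is given for Pfkfb2.
The 3 Pfkfb mRNAs together had 6.81 FPKM in Med1fl/fl and 6.30 FPKM in csMed1-/- heart. With rows summed, Pfkfb1 made up 30.1% of this in control and 3.97% in csMed1-/- heart, and Pfkfb3 32.8% and 55.5%. These sums and shares rest on the summed rows of Pfkfb2 and would differ with its highest row alone.

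The single-gene steps of glycolysis lay within 2-fold of control. At the 6 steps represented by a single gene above the filter (Gpi1, Aldoa, Tpi1, Gapdh, Pgk1 and Pkm), csMed1-/- to control ratios ran from 0.935 to 1.46. The ratios of the non-muscle isoforms Pfkl (1.15) and Pgam1 (1.40) lay inside that range. Of all 13 listed genes of glucose entry and glycolysis outside the 3 enzymes, 12 were kept, 3 lay below and 1 lay above control by more than 2-fold, and their median log2 ratio was 0.27. The lower ones were Slc2a4, the insulin-responsive glucose transporter of muscle (log2 ratio -2.28), Hk2, the muscle hexokinase (-1.66), and Ldhb, the heart type lactate dehydrogenase subunit (-1.55). The widely expressed transporter Slc2a1 was higher (1.29). Their partners Hk1 (0.42) and Ldha (0.50) were above control but within 2-fold, as were Pfkl and Pgam1. Aldoc, at 0.194 and 0.291 FPKM, did not pass the filter.

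**Figure D4:**
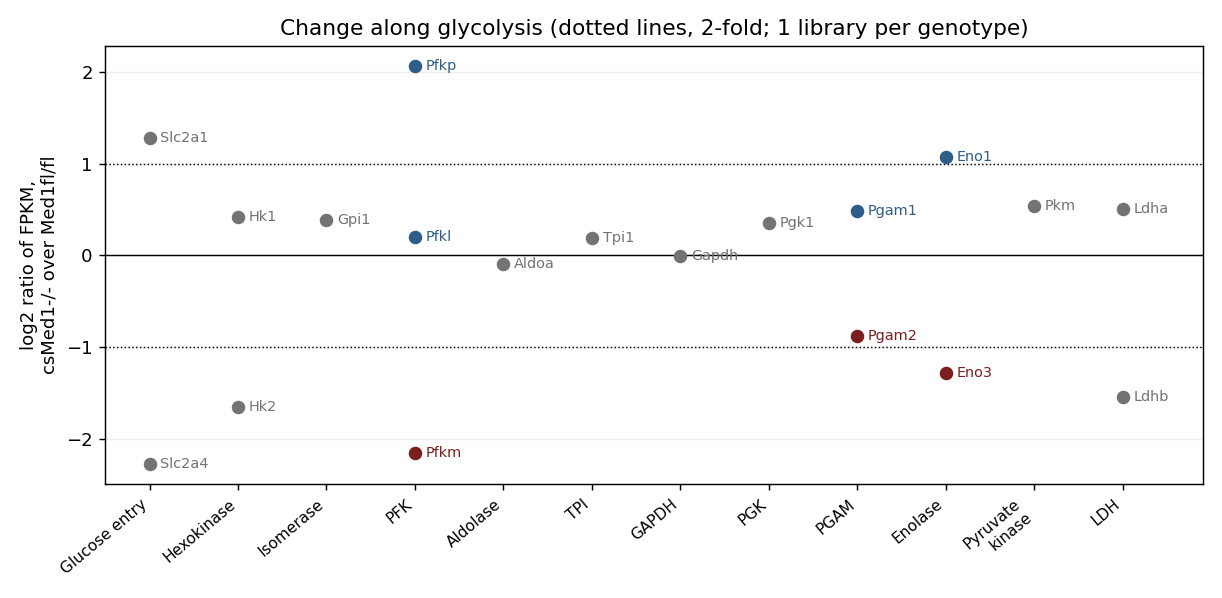
Log2 ratio of FPKM, csMed1-/- over Med1fl/fl, of genes ordered by their step from glucose entry to lactate, with dotted lines at 2-fold and 1 library per genotype. Muscle isoforms of the 3 enzymes are dark red and non-muscle isoforms blue, and the genes of single-gene steps (grey, from Gpi1 to Pkm) lie between -0.10 and 0.54.

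In bulk heart RNA, fewer cells of a type and less RNA per cell cannot be told apart. Cardiomyocyte markers were abundant, with Myl2 at 20467 FPKM and Myl3 at 17340 FPKM in control. All 4 that passed the filter (Tnnt2, Tnni3, Myl2 and Myl3) were lower in csMed1-/- heart, 3 of them by more than 2-fold. Their log2 ratios ran from -2.74 to -0.75, with a median of -1.33. Those 4 summed to 50370 FPKM in Med1fl/fl and 19505 FPKM in csMed1-/- heart (ratio 0.387). Actc1, listed at 0 in control, is left out of this sum, and with it the csMed1-/- sum was 28693 FPKM. Myh6 was looked for but not found among the symbols used here, so it was not analysed. Of 5 fibroblast markers 2 were higher (Col1a1 and Col1a2) and 1 was lower (Lum) by more than 2-fold, and their summed level went from 351 to 920 FPKM with a median log2 ratio of -0.02. Of 4 endothelial markers only Kdr was past 2-fold (lower), and the sum went from 355 to 242 FPKM. For 3 smooth muscle markers 1 was lower and 1 higher, with sums of 600 and 402 FPKM, and for 4 macrophage markers 1 was higher, with sums of 47.9 and 62.1 FPKM. The erythroid marker Alas2 went from 35.8 to 82.1 FPKM. Of 3 adipocyte markers none exceeded 0.0101 FPKM in either library. The skeletal muscle factors Myod1 and Myog were listed at 0 in both libraries, and the 7 skeletal muscle markers summed to 7.68 FPKM in Med1fl/fl and 4.45 FPKM in csMed1-/- heart, with Tnni2 lower and Mylpf higher. The part of cell composition in the isoform differences was not tested.

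Reads of 50 nt can be shared with near-identical copies of a gene, and this touches the non-muscle isoforms more than the muscle ones. In the GENCODE M21 transcripts of GRCm38, the assembly also named mm10, none of the 50-base windows of the Pfkm, Eno3, Pgam2, Pfkp, Pfkfb1 and Pfkfb3 reference transcripts occurs in a transcript of another gene. For Eno1, 72.2% of windows do, most of them in Eno1b, a copy whose coding sequence is 99.4% identical. Eno1b is listed under its older symbol Gm5506, at 77.3 FPKM in Med1fl/fl and 162 FPKM in csMed1-/- heart. Its ratio was near that of Eno1, and Gm5506 stood at 0.380 times the level of Eno1 in control and 0.377 times in csMed1-/- heart, so the level of Eno1 is uncertain. Adding Eno1b and Eno2 to Eno1 moved the difference in Eno3 share from -22.4 to -27.0 percentage points. For Pgam1, 41.5% of windows occur in the pseudogene Pgam1-ps2. For Pfkfb2, 63.5% occur in the overlapping locus Gm29427. Genes on the opposite strand overlap Pfkm (Senp1), Pfkp (Pitrm1), Pfkfb1 (Apex2), Pfkfb2 (Yod1) and Pfkfb3 (Gm10851). The libraries kept strand, but whether the counting used it is not stated. The coding sequences of Eno3 and Eno1 are 76.7% identical, those of Pgam2 and Pgam1 74.7%, and those of Pfkm and Pfkp 69.4%, so the muscle and non-muscle isoforms can be told apart by their reads.

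The promoters of 4 genes that have 1 annotated start each are shown here, 2 muscle isoforms that were lower and 2 non-muscle isoforms that were higher in csMed1-/- heart. Pfkl also has 1 start, but its whole window lies within the annotated gene, so its letters are not printed. The Pfkp window also runs into its annotated gene, but only from 6648772 to 6648777. The sequences are the 250 bases before the RefSeq start on GRCm38.p6, 5′ to 3′ on the gene's strand. At none of the 4 do the bases after this start match the beginning of a GENCODE transcript. The windows of Eno3, Pgam2 and Pgam1 end short of the annotated genes, which begin at 70657202, 5803733 and 41911923. Capitals mark E-boxes (CANNTG), the core of the hypoxia response element (ACGTG) and GC boxes (GGGCGG), each searched on both strands.
Eno3, chr11:70656926-70657175, plus strand: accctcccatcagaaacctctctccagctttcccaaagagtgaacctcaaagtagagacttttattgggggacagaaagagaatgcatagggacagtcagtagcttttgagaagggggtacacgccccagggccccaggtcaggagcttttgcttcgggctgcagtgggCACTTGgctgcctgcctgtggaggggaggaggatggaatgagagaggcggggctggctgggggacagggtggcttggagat
Pgam2, chr11:5803797-5804046, minus strand: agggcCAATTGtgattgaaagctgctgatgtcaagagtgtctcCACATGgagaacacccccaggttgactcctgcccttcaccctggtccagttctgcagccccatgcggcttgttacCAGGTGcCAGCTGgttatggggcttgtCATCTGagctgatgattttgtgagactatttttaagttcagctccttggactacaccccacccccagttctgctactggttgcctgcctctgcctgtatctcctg
Pfkp, chr13:6648772-6649021, minus strand: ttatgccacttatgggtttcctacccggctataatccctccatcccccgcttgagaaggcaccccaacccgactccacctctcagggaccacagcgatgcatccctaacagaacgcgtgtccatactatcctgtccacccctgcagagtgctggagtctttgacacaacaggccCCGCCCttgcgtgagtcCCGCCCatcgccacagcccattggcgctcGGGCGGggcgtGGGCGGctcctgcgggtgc
Pgam1, chr19:41911621-41911870, plus strand: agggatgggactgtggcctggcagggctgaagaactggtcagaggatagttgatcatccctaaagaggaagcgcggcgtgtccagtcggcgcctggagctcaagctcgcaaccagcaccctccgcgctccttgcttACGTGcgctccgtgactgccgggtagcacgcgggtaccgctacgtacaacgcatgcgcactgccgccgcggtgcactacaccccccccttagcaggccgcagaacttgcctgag
These windows hold 3 CpG dinucleotides in Eno3 and 1 in Pgam2, against 16 in Pfkp and 22 in Pgam1. Over the 32817 annotated starts of all genes the median was 6 CpG, with quartiles of 2 and 16. At the other genes of the 2 classes Pfkl has 13, the 3 starts of Eno1 have 9, 21 and 19, and the 4 starts of Pfkm have 2, 6, 10 and 3. The Pgam2 window holds 5 E-boxes and that of Eno3 1, while those of Pfkp and Pgam1 hold 0, and 66.2% of all windows hold at least 1. This order does not extend to the other genes, since Pfkl holds 3 E-boxes, the 3 starts of Eno1 hold 2, 0 and 0, and the 4 starts of Pfkm hold 3, 0, 1 and 1. E-boxes therefore do not separate muscle from non-muscle isoforms. The ACGTG core is in the Pgam1 window once and in 16.6% of all windows. It can overlap an E-box, but does not do so there. At the first start of Pfkm it is counted on each strand of the same CACGTG, which is also an E-box. The second start of Pfkm holds it 1 time, and Pfkl and Eno1 hold none. Pfkp has 4 GC boxes, and 32.7% of all windows hold at least 1. The 3 starts of Eno1 hold 0, 2 and 3 GC boxes, and Pfkl, Pgam1 and all starts of the muscle isoforms hold 0. The half-site of estrogen-related receptors (AAGGTCA, in 4.08% of windows) and the TATA box (TATAAA, 12.4%) are in none of the 4 windows printed. For Eno3, Pgam2 and Pgam1, the bases between the window and the annotated gene were not searched. The first start of Eno1 holds 1 AAGGTCA. A MEF2 core was searched only in a form that begins with C and ends with G (3.20%), which none of the 4 windows holds. Forms that end with A were not searched, so the absence of MEF2 sites from these windows, Pgam2 included, was not tested. A match of letters is a description of the sequence and not a binding site.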

How the data were processed

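Heart RNA of 5 Med1fl/fl and 5 csMed1-/- mice was pooled by genotype, and 1 directional poly(A) library of each pool was sequenced from one end (50 nt). The authors mapped these to mm10 with TopHat 2.0.8b and computed the deposited FPKM values of known genes with Cufflinks and Cuffdiff 2.1.1. Their library scaling and the handling of reads with several matches are not given in the sources used here. The submitters' processing notes also name STAR 2.4.0h, Bowtie2 and DESeq2, without a role.

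Rows sharing a symbol were summed (412 of 22882 symbols), and plain FPKM ratios and log2 ratios were taken without a pseudocount for genes whose FPKM exceeded 0 on each side and reached 1 in at least one library. With 1 library per genotype no test was possible. The 2-fold threshold is that of the study, without its cutoff on the false discovery rate. The text names all 10 genes, Med1, listed relatives, other glycolysis genes and cell type markers. Genes and lists were chosen with earlier results of these data known. Gene models came from GENCODE M21, promoters from RefSeq (GRCm38.p6), and all 10 genes matched both by symbol. Relative depth came from the commonest ratio among 2461 rows no higher than 0.15 FPKM on either side. Coding sequences were aligned globally with Biopython 1.88. Python 3.11.15, numpy 2.4.6, pandas 2.3.3 and matplotlib 3.10.9 were used. The calculation was tested on simulated data. Alternatives were pseudocounts, library scalings, filters, fold thresholds, the highest row per symbol and a wider enolase sum.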

Additional observations from a re-analysis of the deposited data

How the results depend on the processing

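Over 13 alternatives, 24 results were recomputed, giving 161 values. Of these, 156 moved by less than 1.5-fold (counts by at most 1.5 times, shares by less than 5 percentage points), and 0 called values changed direction. These tolerances were set by choice, and the spread between pools is unknown. Each library scaling shifted all log2 ratios by 1 constant of at most 0.12, which is inside the tolerance. Taking the highest row could not move a gene that stands on 1 row. Many of the 156 values were therefore bound to stay the same. A pseudocount of 1 FPKM moved the log2 ratio of Pfkfb1 to -1.29. Taking the highest row of each symbol moved Pfkfb2 to -1.46. With a 4-fold threshold 1 of the 10 genes was higher, and of the other glycolysis genes 1 was lower and 0 were higher, by construction of the stricter threshold. Scaling both libraries to the same FPKM total shifted all log2 ratios by 0.12, the median of all genes included. It brought the phosphofructokinase sum to a log2 ratio of -0.91, inside 2-fold. Centring on the median also brought that sum inside 2-fold, at -0.97. It stayed past 2-fold with 75th percentile scaling (-1.07) and with scaling that left out the 100 highest genes (-1.05). The log2 ratios of Pfkm, Eno3, Pfkp and Eno1 stayed past 2-fold under all pseudocounts, scalings and row choices tried. Under the 10 FPKM filter the 3 Pfkfb genes dropped out, and when 1 FPKM was required in both libraries Pfkfb1 dropped out. Under either filter 2 genes were lower by more than 2-fold, instead of 3. No paired analysis was possible because each genotype is 1 pooled library, and no library could be left out for the same reason. The unknown depth limits the Pfkfb genes most, since all 3 lay below 4 FPKM.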

Other observations

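Fbp2 and Tigar, which oppose phosphofructokinase, were lower in the csMed1-/- library. Fbp2, the muscle fructose bisphosphatase, which reverses the phosphofructokinase step, had 37.4 FPKM in Med1fl/fl and 1.93 FPKM in csMed1-/- heart, which is 19.4-fold lower (log2 ratio -4.28). Only 0.591% of the genes kept had a lower log2 ratio. The summed phosphofructokinase level was 20.1 times that of Fbp2 in control and 190 times in csMed1-/- heart. Tigar, a phosphatase that breaks down the activator made by the Pfkfb enzymes, is listed under the older symbol 9630033F20Rik and had 20.5 FPKM in Med1fl/fl and 7.30 FPKM in csMed1-/- heart, 2.80-fold lower. Fbp1, the liver type bisphosphatase, was at 0.176 and 0.106 FPKM and did not pass the filter.

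Among relatives of the 10 genes, Eno2, the enolase of neurons, had 0.468 FPKM in Med1fl/fl and 2.08 FPKM in csMed1-/- heart (log2 ratio 2.15), the direction of Eno1 at a far lower level. Bpgm, a mutase related to Pgam1 that is best known from red cells, had 14.7 and 12.7 FPKM (ratio 0.866). Pfkfb4, the form best known from testis, had 1.73 and 1.12 FPKM (ratio 0.647). Neither differed by more than 2-fold. None of these values has a replicate.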
